A study of Mus musculus with 8 samples.

Results

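The CXC chemokine ligands described here are the 9 genes Cxcl1, Cxcl2, Cxcl3, Cxcl5, Cxcl9, Cxcl10, Cxcl14, Cxcl16 and Pf4, taken by symbol from a table of 55226 genes. RNA sequencing measured them in macrophages of mouse bone marrow, grown for 7 days with 10% serum and the growth factor M-CSF at 10 ng/ml. There were 4 groups of 2 samples, all of strain C57BL/6: PtipWT (WT) and PtipcKO (cKO) macrophages, each without lipopolysaccharide (LPS, a bacterial cell wall component) and after 6 h of LPS at 100 ng/ml. PTIP, the protein of the gene Paxip1, belongs to a histone methyltransferase complex, and the design asks how its conditional knockout alters the response to LPS. The sources used here do not state the Cre line, the deleted exons, the alleles of the WT mice or the age of the mice. The 2 samples of a group are termed biological replicates, but whether each came from its own mouse is not stated, so the p-values below reflect only how far these samples spread, which may be technical.

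CXC chemokines are small secreted proteins, named for a pair of cysteines separated by 1 other residue, that guide leukocytes through G protein-coupled receptors. Cxcl1, Cxcl2, Cxcl3 and Cxcl5 carry the glutamate-leucine-arginine motif and attract neutrophils through Cxcr2, and their transcription in macrophages is known to depend on NF-kB. Cxcl9 and Cxcl10 lack that motif, are induced by interferons and attract activated T cells and natural killer cells through Cxcr3. Cxcl16 is made as a membrane-bound protein that is shed by the proteases ADAM10 and ADAM17 and binds Cxcr6. Pf4 is platelet factor 4, also called Cxcl4, which is stored in platelet granules. Cxcl14 is a ligand of epithelia and other tissues.

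Of the 9 genes, 7 lie on chromosome 5 of the GRCm38 build. Cxcl5, Pf4, Cxcl3, Cxcl1 and Cxcl2 stand within 146.6 kb on the plus strand, and Cxcl9 and Cxcl10 within 27.5 kb on the minus strand, 1415.4 kb further along. In the GENCODE M21 annotation Cxcl1 spans chr5:90891241-90893115, Cxcl2 chr5:90903871-90905938, Cxcl3 chr5:90786103-90789600, Cxcl5 chr5:90759360-90761624, Pf4 chr5:90772435-90773383, Cxcl9 chr5:92321347-92328079 and Cxcl10 chr5:92346638-92348889. Cxcl16 (chr11:70453983-70459984) and Cxcl14 (chr13:56288643-56296551) lie elsewhere, both on the minus strand. The 250 bases before the annotated RefSeq start (build GRCm38.p6) were found for 7 of the 9 genes and searched on both strands. On the gene strand Cxcl1, Cxcl2 and Cxcl3 shared 1 match to the degenerate NF-kB consensus, the word GGGAATTTCC. It was taken from these promoters and stood in 0.0852% of all 32851 promoters. A second match on the opposite strand, GGGAAATTCC, overlaps the word in each of the 3. The same letters, GGGAAATTCC, stand on the gene strand of Cxcl10. These promoters are shown because their genes rose together with LPS and include the 2 genes called lower in resting cKO cells. Each stretch runs from 150 to 31 bases before the start on the plus strand, with the word in capitals, at chr5:90891095-90891214 for Cxcl1, chr5:90903749-90903868 for Cxcl2 and chr5:90785951-90786070 for Cxcl3.
Cxcl1: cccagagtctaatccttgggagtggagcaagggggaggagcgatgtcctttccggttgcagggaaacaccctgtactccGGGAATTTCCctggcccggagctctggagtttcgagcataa
Cxcl2: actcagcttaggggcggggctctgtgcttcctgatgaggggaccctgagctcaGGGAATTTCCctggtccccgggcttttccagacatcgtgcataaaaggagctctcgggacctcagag
Cxcl3: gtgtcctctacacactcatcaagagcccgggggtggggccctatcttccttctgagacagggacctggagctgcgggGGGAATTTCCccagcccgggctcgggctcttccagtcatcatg
The first base of the word lies 71 bases before the RefSeq start in Cxcl1, 97 in Cxcl2 and 73 in Cxcl3. The Cxcl2 stretch ends at 90903868, 31 bases before the RefSeq start, whereas the GENCODE gene starts at 90903871. The RefSeq start of Cxcl2 thus lies inside the GENCODE gene, and counted from the GENCODE start its word is nearer than 97 bases.

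The promoter of Cxcl10 is shown as well, from 250 to 31 bases before its start on the minus strand at chr5:92348920-92349139. Capitals mark 3 matches, which are, in order, the interferon-stimulated response element word (TTTC, any 2 bases, TTTC) on the opposite strand and a pair of matches to the degenerate NF-kB consensus.
Cxcl10: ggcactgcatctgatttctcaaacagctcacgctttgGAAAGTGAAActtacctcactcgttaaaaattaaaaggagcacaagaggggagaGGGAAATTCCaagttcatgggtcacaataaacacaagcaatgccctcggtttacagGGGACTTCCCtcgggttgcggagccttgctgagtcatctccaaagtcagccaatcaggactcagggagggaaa
The interferon word was in 2.98% of all promoters and among these genes also in that of Cxcl14. The degenerate consensus, which covers the NF-kB word above as well, was in 3.9% of all promoters and in those of Cxcl1, Cxcl2, Cxcl3 and Cxcl10. The AP-1 word TGANTCA (6.75% of promoters) was found in Cxcl10. The word TATAAA (12.4%) was found in Cxcl3, 30 to 25 bases before the start, and in Cxcl9, 195 to 190 bases before it. These matches describe letters, and no binding was measured here.

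Values are rlog, a log2 expression scale on which values of genes with low counts are shrunken. Testing was by limma on the 11543 genes whose rlog averaged 3 or more, and p-values were adjusted over all of these by the Benjamini-Hochberg method, with a threshold of 0.05. Of the 9 chemokine genes, 7 passed this filter, while Cxcl5 (mean 1.996) and Cxcl14 (mean 1.658) did not. Paxip1 was lower in all 4 libraries labelled cKO, at 2.48 to 2.63 against 3.82 to 4.5 in WT. Across genes, r between the 2 libraries of a group was 0.987 to 0.992. Macrophage markers such as Adgre1 (14 to 15.18) and Csf1r (12.75 to 13.44) were high in every library. Read counts were not used here, so the depth of each library is unknown.

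**Figure D1:**
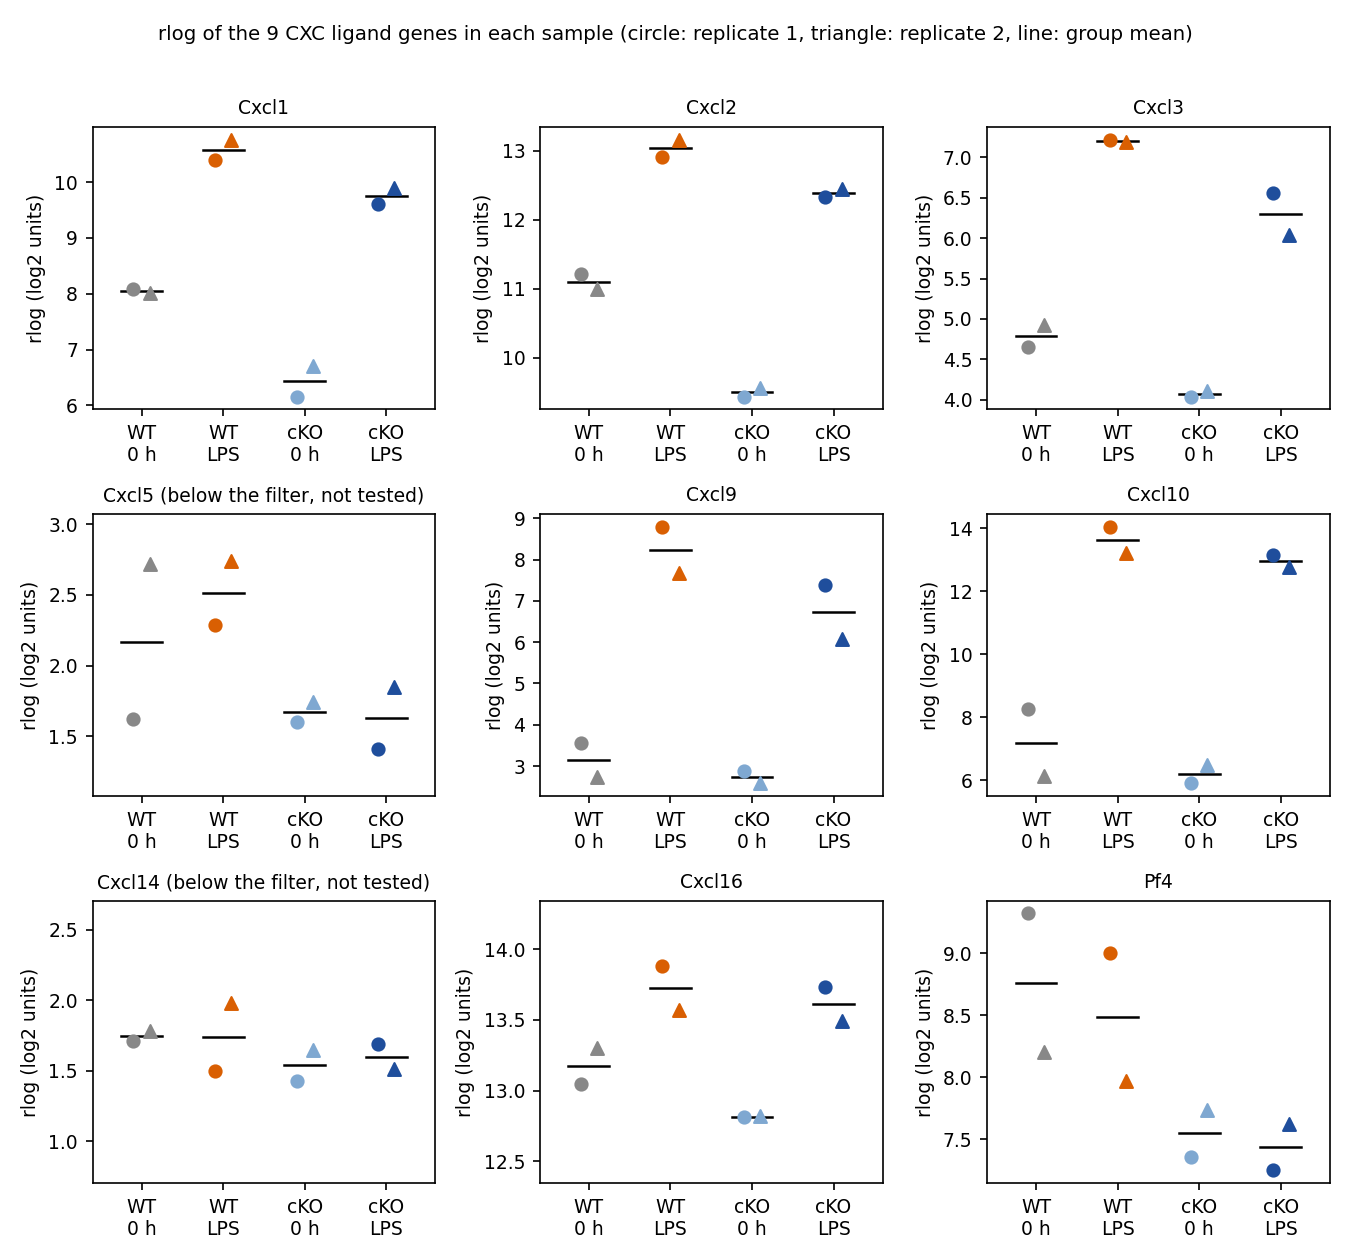
Each panel plots the rlog (log2 units) of 1 gene in the 8 samples by group, with replicate 1 as a circle, replicate 2 as a triangle and the group mean as a line; the vertical axes differ and do not start at 0. Cxcl1, Cxcl2 and Cxcl3 rose with LPS in both genotypes and both cKO samples lay below both WT samples at each time, while the Pf4 samples with and without LPS overlapped.

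LPS raised 6 of the 7 tested chemokine genes in WT macrophages and the same 6 in cKO macrophages. Of all tested genes, 22.5% were called higher and 19.7% lower in WT, and 19.6% higher and 17.5% lower in cKO. Under quantile normalization the larger share was lower, with 2220 genes higher and 2771 lower in WT and 2012 and 2501 in cKO. In both genotypes the samples of these 6 genes did not overlap, as for 35.7% (WT) and 35.6% (cKO) of all tested genes in that direction. The authors' deposited table called 5 of the 9 genes higher in WT, all but Cxcl16 of these, and 6 in cKO, with 8.96% and 8.73% of its genes called higher. The median change of the 7 genes was 2.42 in WT and 2.89 in cKO, against -0.01 and -0.02 over all tested genes. Cxcl10 and Cxcl9 had the largest changes, and the tested neutrophil attractants Cxcl1, Cxcl2 and Cxcl3 followed at about 2 to 3 log2 units. Cxcl16 rose by less than 1, and Pf4 did not pass the threshold.

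Among the neutrophil attractants, Cxcl2 had rlog values of 11.21 and 11 in resting WT samples, 12.91 and 13.16 in LPS-treated WT samples, 9.44 and 9.56 in resting cKO samples, and 12.33 and 12.45 in LPS-treated cKO samples. All LPS samples lay above all 0 h samples, and at either time both cKO samples lay below both WT samples. With LPS it rose by 1.93 (SE 0.14, adjusted p = 2.7e-05 by limma) in WT and by 2.89 (SE 0.14, adjusted p = 1.25e-05) in cKO. Cxcl1 was at 8.08 and 8.01 in resting WT samples, 10.4 and 10.76 in LPS-treated WT samples, 6.16 and 6.7 in resting cKO samples, and 9.61 and 9.9 in LPS-treated cKO samples. Its groups were ordered as those of Cxcl2, with resting cKO samples lowest and WT samples after LPS highest. Cxcl1 rose by 2.53 (SE 0.21) in WT and 3.32 (SE 0.21) in cKO, with adjusted p-values of 4.52e-05 and 2.38e-05. Cxcl3 was at 4.65 and 4.92 in resting WT samples, 7.22 and 7.19 in LPS-treated WT samples, 4.04 and 4.11 in resting cKO samples, and 6.56 and 6.04 in LPS-treated cKO samples. Its changes of 2.42 in WT and 2.22 in cKO (SE 0.21 each, adjusted p = 6.25e-05 and 0.000129) were nearly the same size. Cxcl2 and Cxcl3 share 126 of their 50-base transcript words in the GENCODE M21 annotation. With all other genes counted, 5.84% of the words of Cxcl2 and 4.24% of those of Cxcl3 were shared. These are shares of words, not of reads, and Cxcl2 (9.44 to 13.16) lay far above Cxcl3 (4.04 to 7.22). Reads of Cxcl2 from the shared words could thus be many beside those of Cxcl3. How far they entered the values of Cxcl3 was not tested. Cxcl1 shared 0 words with any other gene.

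Cxcl5, the remaining neutrophil attractant, was near the low end of the scale in every sample. It was at 1.62 and 2.72 in resting WT samples, 2.29 and 2.74 in LPS-treated WT samples, 1.6 and 1.74 in resting cKO samples, and 1.41 and 1.85 in LPS-treated cKO samples. The LPS and 0 h samples overlapped in both genotypes. After LPS both cKO samples lay below both WT samples, with a difference of -0.89 that was not tested because the gene lay under the filter. In the authors' deposited table its log2 fold change there was -2.88 with an adjusted p of 1.

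The interferon-induced ligands had the widest range. Cxcl10 was at 8.25 and 6.13 in resting WT samples, 14.06 and 13.22 in LPS-treated WT samples, 5.9 and 6.47 in resting cKO samples, and 13.15 and 12.79 in LPS-treated cKO samples. Among resting samples WT replicate 1 stood above the other 3, in which WT and cKO overlapped. Cxcl10 rose by 6.45 (SE 0.59, adjusted p = 7.61e-05) in WT and by 6.79 (SE 0.59, adjusted p = 8.69e-05) in cKO, ranking 3 in WT and 1 in cKO among all tested genes from the highest rise. Cxcl9 was at 3.55 and 2.74 in resting WT samples, 8.8 and 7.68 in LPS-treated WT samples, 2.88 and 2.58 in resting cKO samples, and 7.38 and 6.08 in LPS-treated cKO samples. Replicate 1 was the higher sample of Cxcl9 in each of the 4 groups, and after LPS the WT samples lay above the cKO samples. Cxcl9 rose by 5.09 (SE 0.5, adjusted p = 0.000102) in WT and by 4 (SE 0.5, adjusted p = 0.000477) in cKO. Its group means at 0 h were 3.15 in WT and 2.73 in cKO, so it passed the filter mainly through its LPS samples. Art3, which overlaps 5.9% of the exon bases of Cxcl10 on the opposite strand, was at 0.69 to 1.47 in all samples, far below it.

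Cxcl16 was high without LPS and had the smallest change that passed. It was at 13.05 and 13.3 in resting WT samples, 13.88 and 13.57 in LPS-treated WT samples, 12.81 and 12.82 in resting cKO samples, and 13.73 and 13.49 in LPS-treated cKO samples. The LPS samples lay above the 0 h samples in both genotypes, with changes of 0.55 (SE 0.17, adjusted p = 0.0299) in WT and 0.80 (SE 0.17, adjusted p = 0.00689) in cKO. These calls depended on the processing: under quantile normalization the change was -0.24 (adjusted p = 0.234) in WT and 0.29 (adjusted p = 0.164) in cKO. Leaving out replicate 1 of WT at 0 h gave an adjusted p of 0.149 in WT and leaving out WT LPS replicate 1 gave 0.141, and in cKO it was 0.0646 without cKO LPS replicate 1. Zmynd15, on the opposite strand, covers 18.3% of the exon bases of Cxcl16. It was at 7.17 to 7.43 at 0 h and 8.62 to 9 after LPS, far below Cxcl16 at 12.81 to 13.88. Without a known strand setting its reads in the shared bases cannot be told apart from those of Cxcl16.

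Pf4 was at 9.32 and 8.2 in resting WT samples, 9 and 7.97 in LPS-treated WT samples, 7.36 and 7.74 in resting cKO samples, and 7.25 and 7.62 in LPS-treated cKO samples. Its LPS and 0 h samples overlapped in both genotypes. The changes with LPS were -0.27 (SE 0.41, adjusted p = 0.628, 95% interval -1.21 to 0.67) in WT and -0.11 (SE 0.41, adjusted p = 0.857, 95% interval -1.05 to 0.83) in cKO. Cxcl14 ranged from 1.43 to 1.98 over the 8 samples, the LPS and 0 h samples overlapped in both genotypes, and it was not tested.

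**Figure D2:**
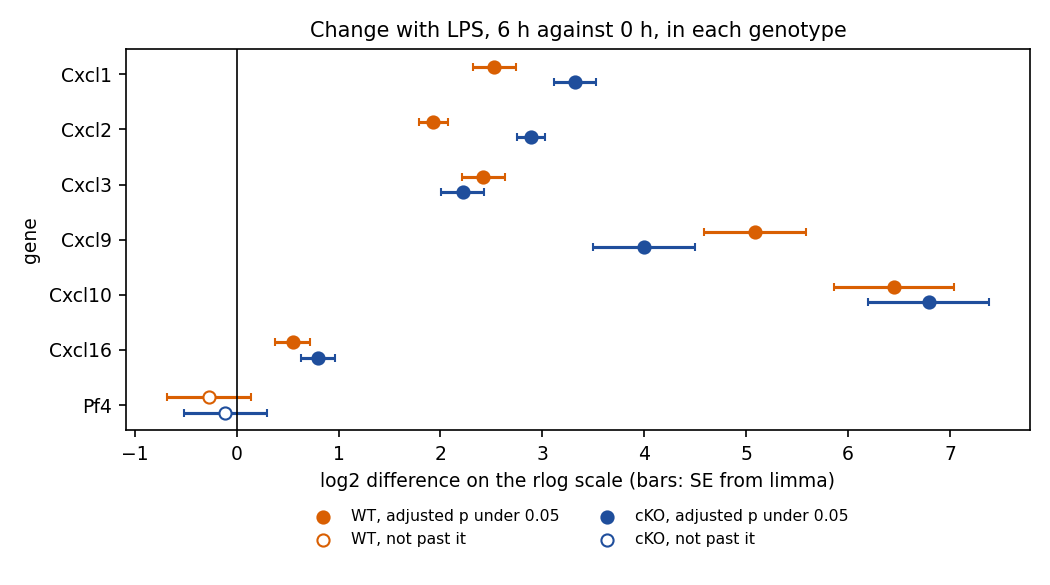
The horizontal axis gives the change with LPS (6 h minus 0 h, log2 units of rlog) for the 7 tested genes in WT (orange) and cKO (blue), with bars for the SE from limma and filled points for an adjusted p under 0.05. Cxcl10 and Cxcl9 lie between 4 and 6.79, Cxcl1, Cxcl2 and Cxcl3 between 1.93 and 3.32, and Pf4 is the gene with open points.

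Before LPS, Cxcl1 and Cxcl2 were lower in cKO than in WT macrophages. Cxcl1 had a difference of -1.62 (cKO minus WT, SE 0.21, adjusted p = 0.0284), and Cxcl2 had a difference of -1.6 (SE 0.14, adjusted p = 0.00632). These 2 of 7 tested genes stand beside 0.199% of all tested genes called lower and 0.052% called higher. The 23 lower and 6 higher calls over all genes were 29 lower and 99 higher without cKO 0 h replicate 1. In bulk RNA, fewer cells that express a gene and less RNA per cell cannot be told apart. All 7 differences were below 0, as were 52.2% over all tested genes, and the median was -1.01 against -0.01. The 2 groups did not overlap, with cKO lower, in 5 of the 7, and in 21.9% of all tested genes. The 7 genes were measured in the same libraries, so these are not 7 separate results. The authors' deposited table gave log2 fold changes of -1.83 for Cxcl1 (adjusted p = 2.48e-05), -1.76 for Cxcl2 (adjusted p = 2.57e-11) and -1.47 for Pf4 (adjusted p = 0.00913), and called 0.476% of its genes lower.

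The other resting differences did not pass. Pf4 had a difference of -1.21 (SE 0.41, adjusted p = 0.334), with both cKO samples below both WT samples. Without WT 0 h replicate 1 it was -0.65 (adjusted p = 0.831), and without WT 0 h replicate 2 it was -1.77 (adjusted p = 0.181). Cxcl3 had a difference of -0.71 (SE 0.21, adjusted p = 0.275) and Cxcl16 of -0.36 (SE 0.17, adjusted p = 0.49), in both cases with groups that did not overlap. For Cxcl10 the difference of -1.01 (SE 0.59, adjusted p = 0.593) rested on 1 library: it was 0.06 when WT 0 h replicate 1 was left out and -2.07 when replicate 2 was. For Cxcl9 it was -0.42 (SE 0.5, adjusted p = 0.834), and -0.01 without WT 0 h replicate 1. Cxcl14 and Cxcl5, not tested, differed by -0.20 and -0.49.

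The calls of Cxcl1 and Cxcl2 at 0 h kept their direction but not always their side of the threshold. Leaving out WT 0 h replicate 1 gave -1.58 for Cxcl1 (adjusted p = 0.202) and -1.5 for Cxcl2 (adjusted p = 0.0685), so that no chemokine gene passed. For Cxcl1 the adjusted p was also 0.0854 without WT 0 h replicate 2, 0.0951 and 0.0949 without cKO LPS replicate 1 or 2, which enter only through the shared variance, 0.0881 with all low genes kept, 0.065 without a variance trend and 0.123 with only the groups compared. Over 17 alternatives the difference ran from -1.89 to -1.34 for Cxcl1 (adjusted p 0.00881 to 0.202) and from -1.71 to -1.5 for Cxcl2 (adjusted p 0.00471 to 0.0685).

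After LPS, Cxcl2 was the 1 chemokine gene that passed, lower in cKO with a difference of -0.65 (SE 0.14, adjusted p = 0.0446). Of all tested genes 2.46% were called lower and 1.51% higher, a split of 284 to 174 that was 120 to 115 under quantile normalization. The difference of Cxcl3 was -0.91 (SE 0.21, adjusted p = 0.0542), that of Cxcl1 -0.82 (SE 0.21, adjusted p = 0.066), that of Pf4 -1.05 (SE 0.41, adjusted p = 0.182) and that of Cxcl9 -1.51 (SE 0.5, adjusted p = 0.122). Cxcl10 differed by -0.67 (SE 0.59, adjusted p = 0.561) and Cxcl16 by -0.12 (SE 0.17, adjusted p = 0.743). All 7 differences were again below 0, against 54% of all tested genes, and 6 of the 7 had cKO samples wholly below WT samples, against 29.7% of all tested genes. The exception was Cxcl16. The median was -0.82, against -0.03 over all tested genes. As at 0 h, the 7 genes shared their libraries and are not 7 separate results. The authors' deposited table called Cxcl1 (-0.85, adjusted p = 0.0127), Cxcl2 (-0.65, adjusted p = 0.0403) and Pf4 (-1.24, adjusted p = 0.0194) lower, and 1.61% of its genes.

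The call of Cxcl2 after LPS lay close to the threshold. It was lost in 12 of 17 alternatives, with adjusted p-values from 0.0359 to 0.352 over all of them. Without either WT 0 h library or either cKO 0 h library the adjusted p was 0.0508 to 0.0516 at an unchanged difference. Without WT LPS replicate 1 or 2 it was 0.0858 and 0.112, and without cKO LPS replicate 1 or 2 it was 0.216 and 0.22. Under quantile normalization the difference was -0.27 (adjusted p = 0.352). With replicate number as a block, Cxcl1, Cxcl2, Cxcl3 and Cxcl9 were called lower in cKO, although the numbers were not taken as pairs. Cxcl1 passed without either cKO 0 h library (adjusted p = 0.0368 without replicate 1 and 0.0367 without replicate 2). The other differences after LPS also moved with single LPS libraries. For Cxcl9 the difference was -0.95 or -2.07 when WT LPS replicate 1 or 2 was left out, and -2.16 or -0.86 when cKO LPS replicate 1 or 2 was. Leaving out WT LPS replicate 1 or 2 gave -0.53 or -1.57 for Pf4 and -0.25 or -1.09 for Cxcl10.

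**Figure D3:**
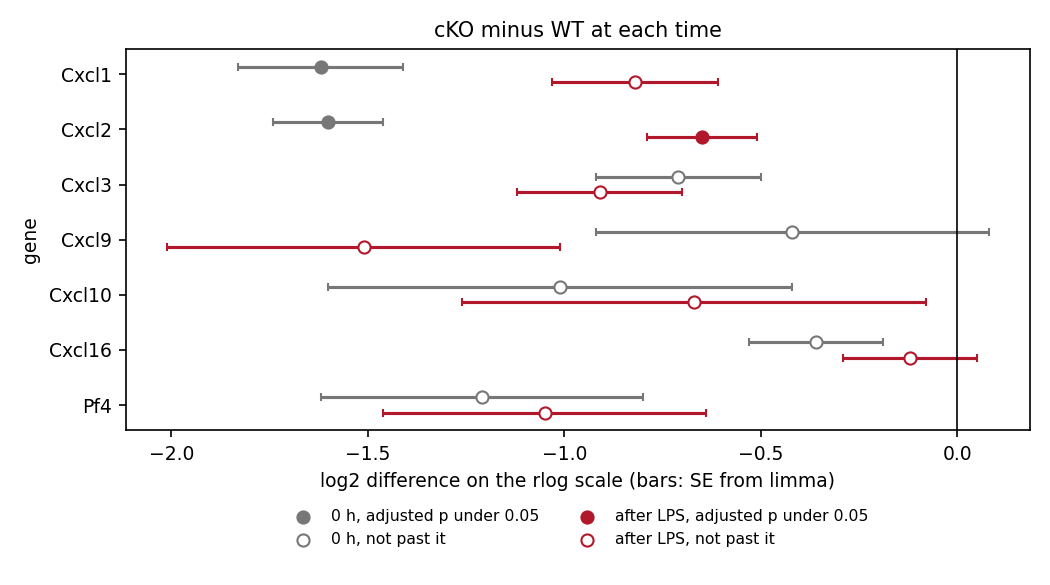
The horizontal axis gives cKO minus WT (log2 units of rlog) for the 7 tested genes at 0 h (grey) and after LPS (red), with bars for the SE from limma and filled points for an adjusted p under 0.05. All points lie below 0; Cxcl1 and Cxcl2 are filled at 0 h and Cxcl2 after LPS.

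**Figure D4:**
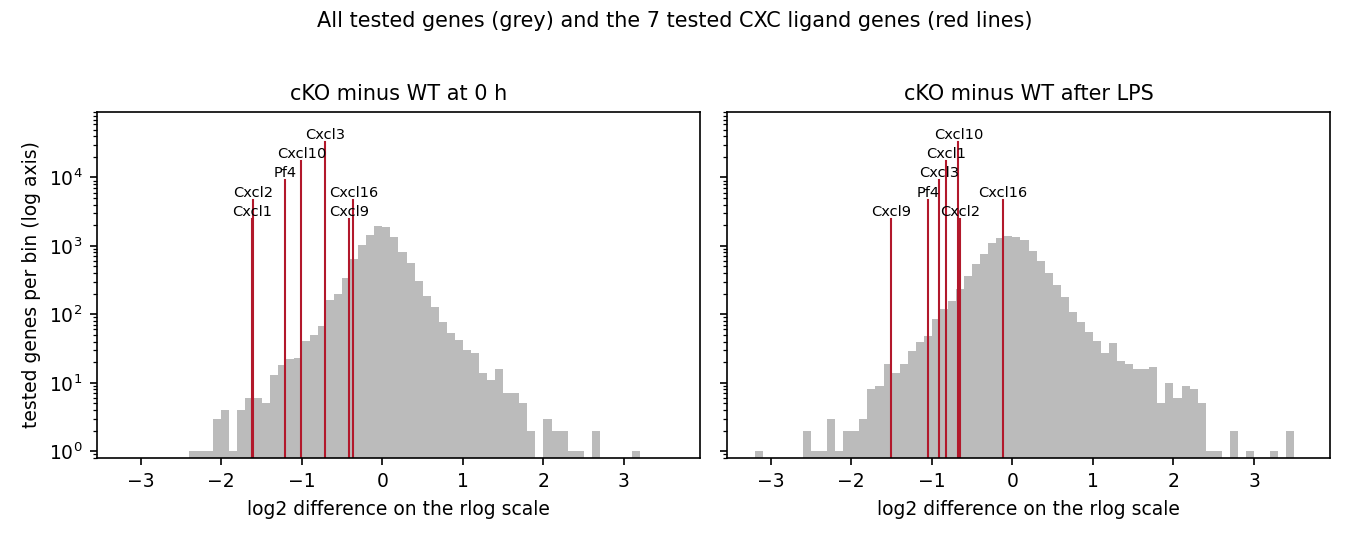
Grey bars count the 11543 tested genes by cKO minus WT (log2 units of rlog; logarithmic vertical axis) at 0 h (left) and after LPS (right), and red lines mark the 7 tested chemokine genes, with line height varied only to keep names apart. At 0 h Cxcl1 and Cxcl2 stand in the lower tail near -1.6, and after LPS Cxcl9 at -1.51 is the lowest of the 7.

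The size of the LPS response was compared between genotypes with an interaction term, the LPS change in cKO minus that in WT. For Cxcl2 the estimate was 0.95 (SE 0.2, 95% interval 0.5 to 1.41), with an unadjusted p of 0.00121 and an adjusted p of 0.643 by limma. For Cxcl1 it was 0.79 (SE 0.29, 95% interval 0.12 to 1.46, adjusted p = 0.708). Neither passed, and limma called 0 of the 11543 genes, 751 of which had an unadjusted p under 0.05. With no filter on low values 10 genes passed, none of them among the 9 chemokine genes. Both estimates stayed above 0 in each of the 17 alternatives, from 0.83 to 1.38 for Cxcl2 and from 0.52 to 1.06 for Cxcl1. For Cxcl9 the estimate was -1.09 (SE 0.70, 95% interval -2.70 to 0.51, adjusted p = 0.799). The authors' deposited table gave log2 fold changes with LPS for Cxcl9 of 6.65 in WT and 6.92 in cKO, and for Cxcl3 of 3.02 and 3.32, so for both genes the order of the genotypes was the opposite of that on the rlog scale. The interaction was -0.20 (95% interval -0.88 to 0.49) for Cxcl3, 0.34 (-1.58 to 2.25) for Cxcl10, 0.25 (-0.30 to 0.79) for Cxcl16 and 0.16 (-1.16 to 1.48) for Pf4. That of Cxcl10 was -0.73 or 1.4 when replicate 1 or 2 of WT at 0 h was left out. These intervals are wide, and do not show that the genotypes responded alike.

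To compare levels between genes, the log2 of the exon length in kb was subtracted from the group mean of rlog. The exon length joins all annotated transcripts, and for Cxcl1, Cxcl2, Cxcl3 and Cxcl10 it equals the whole gene span, introns included. Their levels per kb may therefore be understated beside the others, and their places in the orders below are uncertain. In resting WT cells the level per kb of Cxcl16 was highest, at 11.58 ± 0.18 (SD, n = 2), followed by Cxcl2 (10.05 ± 0.15), Pf4 (9.23 ± 0.79), Cxcl1 (7.14 ± 0.05), Cxcl10 (6.02 ± 1.5), Cxcl3 (2.98 ± 0.19), Cxcl9 (1.56 ± 0.57), Cxcl5 (1.27 ± 0.78) and Cxcl14 (0.87 ± 0.04). The gaps between Cxcl2 and Pf4, Cxcl1 and Cxcl10, Cxcl9 and Cxcl5, and Cxcl5 and Cxcl14 were smaller than the sum of the SDs of each pair. Resting cKO cells had the same order, from Cxcl16 at 11.22 to Cxcl14 at 0.67. After LPS Cxcl10 stood at 12.47 ± 0.59 per kb in WT, Cxcl16 at 12.13 ± 0.21 and Cxcl2 at 11.99 ± 0.18, which did not differ beyond their spread. Cxcl1 (9.67 ± 0.26) and Pf4 (8.96 ± 0.73), whose gap was smaller than the sum of their SDs, came next, then Cxcl9 (6.65 ± 0.8) and Cxcl3 (5.4 ± 0.02). In cKO after LPS the leading levels per kb were 12.01 ± 0.17 for Cxcl16, 11.80 ± 0.25 for Cxcl10 and 11.34 ± 0.09 for Cxcl2, of which the first 2 did not differ beyond their spread. The shrinkage of rlog at low counts affects the lowest of these values.

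The tested genes whose rlog followed each chemokine gene most closely over the 8 samples are given as a description. The 8 points share their libraries and the division into LPS and 0 h. Cxcl1 was most like Cxcl2 (Pearson r = 0.995), Rasgrp1 (0.994) and Stxbp3-ps (0.991), and Cxcl2 most like Arl5b (0.996), Cxcl1 and Brd2 (0.99). For Cxcl3 they were Hivep3 (0.995), Mocs2 (0.995) and Phtf2 (0.993). Cxcl9 was most like Nos2 (0.995), Il15ra (0.995) and Gna13 (0.994), and Cxcl10 most like Inpp1 (0.999), Phf11-ps (0.998) and Ifi205 (0.998). Cxcl16 was most like Tlr2 (0.984), Sar1a (0.983) and Gosr2 (0.98). Pf4 was most like Tcea3 (0.978), Nr4a2 (0.96) and Tmem176b (0.949).

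Other genes of the pathway were taken from lists by role. Their calls with LPS stand beside the 22.5% of all tested genes called higher and 19.7% lower in WT, and 19.6% and 17.5% in cKO. Between genotypes the shares were 0.199% lower and 0.052% higher at 0 h, and 2.46% and 1.51% after LPS. Of 6 further CXC ligands 2 were tested. Of these, Cxcl11 is an interferon-induced neighbour of Cxcl10 annotated in GENCODE M21 as a polymorphic pseudogene. It rose with LPS by 4.15 (SE 0.63, adjusted p = 0.00104) in WT and 2.75 (SE 0.63, adjusted p = 0.00976) in cKO. It was at 2.08 to 2.54 at 0 h, so it passed the filter only through its LPS samples (4.38 to 7.52). Ppbp, a platelet ligand next to Pf4, divided by replicate number: it was at 3.07 to 3.49 in the 4 samples of replicate 1 and at 4.95 to 5.74 in the 4 of replicate 2. Of 8 CXC receptor genes 2 were tested, and both fell with LPS. Cxcr3, the receptor of Cxcl9 and Cxcl10, had changes of -1.49 in WT and -2.16 in cKO, and Cxcr4 of -1.39 and -0.76 (SE 0.22 each). Neither passed between genotypes. Cxcr2, the receptor of the neutrophil attractants, was at 1.61 to 2.38 and lay under the filter.

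Of 7 tested genes that shed, cut or bind CXC ligands, 2 rose and 2 fell with LPS in WT (median 0.08), and 2 rose and 1 fell in cKO (median -0.34). The syndecan gene Sdc4 rose with LPS in WT (2.97) and cKO (2.61). Adam17 rose by 0.45 and 0.68, and Adam10 fell in both, with changes of -0.79 in WT and -0.52 in cKO. Sdc1, a heparan sulfate proteoglycan, fell with LPS in WT (-0.59) and was lower in cKO than in WT at 0 h (-1.47, SE 0.2, adjusted p = 0.0341) and after LPS (-1.22, SE 0.2, adjusted p = 0.0202). It was the 1 gene of this list called between genotypes, with list medians of -0.29 and -0.52.

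Of 11 NF-kB and IkB genes 10 rose with LPS in WT and 10 in cKO, and 0 passed between genotypes by limma at either time. An unadjusted p under 0.05 was found for 6 of the 11 at 0 h and 3 after LPS. Over all 11543 tested genes, 1256 had such a p at 0 h and 2483 after LPS. The list medians were 1.76 and 1.57 for LPS in WT and cKO, and -0.32 and -0.14 between genotypes at 0 h and after LPS. The largest rises were in the IkB genes Nfkbib (2.57) and Nfkbie (2.35) in WT, and in Tnfaip3 (2.71), a ubiquitin-editing inhibitor of NF-kB, and Nfkbib (2.48) in cKO. Of 14 tested interferon signalling genes 11 rose and 1 fell in WT, and 9 rose and 1 fell in cKO, with medians of 0.78 and 0.69. Irf1 rose by 3.25 and 3.08 and Irf7 by 2.65 and 2.64, while Ifngr1, a receptor chain for interferon gamma, fell, with changes of -1.80 and -1.20. Between genotypes 0 passed at 0 h, with 3 at an unadjusted p under 0.05 and a list median of -0.22. After LPS the median was -0.28 and 2 were lower in cKO: Ifnar1, a receptor chain for type I interferon (-1.06, SE 0.16, adjusted p = 0.0178), and the kinase gene Jak1 (-0.54, SE 0.12, adjusted p = 0.0487). Ifnb1, under the filter, was at 4.24 and 3.29 in WT after LPS and 2.94 and 2.47 in cKO after LPS.

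Messages of several of these chemokines are short-lived. Of 9 tested regulators of mRNA stability, 3 rose and 2 fell with LPS in WT, and 3 rose and 3 fell in cKO, with medians of 0.39 and 0.37. Between genotypes the medians were 0.1 at 0 h and 0.01 after LPS. Elavl1, which encodes the stabilising RNA-binding protein HuR, was higher in cKO at 0 h (2.04, SE 0.19, adjusted p = 0.00686) and after LPS (2.25, SE 0.19, adjusted p = 0.00381). Arid5a, another stabilising factor, rose with LPS by 3.02 in WT and 2.89 in cKO and was lower in cKO after LPS (-0.79, SE 0.14, adjusted p = 0.0232). Zc3h12a, which encodes the RNase Regnase-1, rose by 0.81 and 1.05. The decay factor genes Zfp36l1 (-3.45 and -3.21) and Zfp36l2 (-0.64 and -0.85) fell with LPS in WT and cKO. Zfp36, which encodes the decay factor tristetraprolin, differed between genotypes by -1.02 at 0 h (adjusted p = 0.421) and by -1.23 after LPS (adjusted p = 0.124).

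Marker genes of other cells were examined beside these results, as the log2 of their summed levels. The 8 macrophage markers summed to 19.24 to 19.53 in WT and 18.42 to 18.73 in cKO, a sum dominated by Lyz2 (19 to 19.31 and 18.13 to 18.46). Of these 8, limma called Itgam (-1.11) and Mertk (-1.10) lower in cKO after LPS and 0 of the 8 at 0 h. At 0 h 4 had an unadjusted p under 0.05, as did 1256 of all 11543 tested genes. At each time 7 of the 8 differences were below 0, with medians of -0.50 at 0 h and -0.52 after LPS. The cKO samples lay wholly below the WT samples in 5 of the 8 at each time, against 21.9% and 29.7% of all tested genes. They lay wholly above them in 1 at 0 h. The 8 megakaryocyte and platelet markers, of which 3 were tested and Gp1bb was listed at 0, summed to 6 to 6.85 in WT and 6.73 to 7.08 in cKO at 0 h. After LPS they summed to 5.98 to 6.84 in WT and 5.97 to 6.83 in cKO. The 9 neutrophil and precursor markers, of which 3 were tested and Retnlg was listed at 0, summed to 10.13 to 10.30 in WT and 9.88 to 10.13 in cKO at 0 h. Among the 3 tested, Csf3r was at 9.45 to 10.52. S100a8 was at 6.5 to 8.35, with both cKO samples above both WT samples at both times, by differences of 1.03 at 0 h and 0.88 after LPS that did not pass (adjusted p = 0.129 and 0.0541), and it rose with LPS in WT (0.65). Camp rose with LPS by 1.19 in WT and 1.84 in cKO. Of the others, Ly6g (-2.03 to -1.98), Elane (-1.02 to -0.48) and Mpo (-0.44 to 0.03) were at the low end of the scale, while Ngp reached 3.89 and S100a9 2.56. The 7 fibroblast markers summed to 4.13 to 4.39 in WT and 3.91 to 4.28 in cKO at 0 h. They summed to 6.41 to 6.45 in WT and 6.17 to 6.24 in cKO after LPS. The 1 tested, Pdgfrb, rose by 2.85 in WT and 2.53 in cKO, and Col1a1 was at -0.49 to 0. The 6 dendritic cell markers, 3 of them tested, summed to 8.63 to 9.24 at 0 h and 10.11 to 11.17 after LPS, of which Ccr7 was at 8.57 to 9.18 and 10.07 to 11.14. The 5 endothelial markers, with Tek and Emcn listed at 0, summed to 6.24 to 6.32 in WT and 5.77 to 6.08 in cKO at 0 h. They summed to 9.31 to 9.35 in WT and 8.79 to 8.95 in cKO after LPS. Among them Kdr rose by 3.5 in WT and 3.42 in cKO, from 5.39 to 5.92 at 0 h to 8.75 to 9.32 after LPS, while Pecam1 had changes of -0.27 and -0.32 that did not pass. None of the 7 T and natural killer cell markers passed the filter. Their sums were 3.33 to 3.42 in WT and 3.78 to 3.93 in cKO at 0 h. With LPS they were 3.08 to 3.34 in WT and 3.9 to 3.99 in cKO. Of 5 B cell markers the 1 tested, Cd79b, fell with LPS (-1.39 in WT and -1.29 in cKO). Of 4 mast cell and basophil markers 2 were tested, and Cpa3 rose with LPS in WT (1.07). The sums of these last 2 lists overlapped between genotypes at each time. The part of these marker genes in the chemokine differences was not tested.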

How the data were processed

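Poly(A) RNA of 8 macrophage samples was sequenced after 7 days of culture, 2 samples in each of 4 groups set by the sample titles. The GRCm38 build and the tools CASAVA, featureCounts, DESeq2 and HISAT2 2.1.0 appear in the submitters' processing notes without roles. The sources used here do not give the annotation or how strand and multiply matching reads were counted. The authors deposited 1 table of rlog values on a log2 scale (-2.31 to 19.31), with 26727 of 55226 genes at 0 in every sample. Per the file headers it also holds the authors' p-values, plain and adjusted, and log2 fold changes for 4 comparisons. Differences of rlog understate the change of low genes.

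The 11543 genes whose rlog averaged 3 or more entered a limma 3.58.1 model in R 4.3.3 with 4 group means and a variance trend (4 residual and 4.4 prior degrees of freedom). The script was first checked on made-up values with known changes. Alternatives covered filters, normalization, variance priors, blocks, left-out samples and the authors' calls. The members and lists were chosen with earlier results of these data known. Named pathway genes are up to 2 of the largest called rises and falls per list and comparison, provided the 2 groups do not overlap, every list gene called between genotypes, and the 3 genes most like each tested member. Cxcr2, Ifnb1, Zfp36, Ppbp, Art3, Zmynd15 and the marker genes named were singled out after their values were seen. Promoters come from RefSeq and positions from GENCODE M21, both GRCm38.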

Additional observations from a re-analysis of the deposited data

How the results depend on the processing

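Of 629 values of single chemokine genes under the alternatives, 596 kept their side of the threshold or stayed within the replicate spread, 27 lost a call, 5 gained one and 1 reversed: the LPS change of Cxcl16 in WT, -0.24 under quantile normalization. For Cxcl5 and Cxcl14 the alternatives were changes of the filter alone, which cannot move a difference of group means, so their values say nothing about stability. The counts of genes called for LPS stayed at 5 or 6 in both genotypes, and that for the interaction at 0, in all alternatives. In resting cells, where 2 chemokine genes were called lower in cKO, 1 was called with no filter, 1 without a variance trend, 0 with only the groups compared, 3 by the authors' deposited adjusted p-values, and 0 to 2 with a sample left out (0 without WT 0 h replicate 1, 1 without WT 0 h replicate 2 or either cKO LPS sample). After LPS, where 1 was called, the count was 0 with no filter, under quantile normalization, without a variance trend, with only the groups compared and with a minimum difference of 1, 3 by the authors' deposited adjusted p-values, and 0 to 1 with a sample left out, runs that assume that a lone sample varies like the other groups. The cause of these changes was not tested.

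Same-numbered samples did not deviate together in every pair of groups (correlations of -0.042 to 0.311, over 0.1 in 4 of 6 and above 0 in 5), so the numbers were not taken as pairs. Between 0 h and LPS within a genotype the correlation was 0.222 in WT and 0.311 in cKO, and the lowest was between the genotypes at 0 h. With replicate number as a block 4 chemokine genes were called after LPS, Cxcl1, Cxcl2, Cxcl3 and Cxcl9, and the other counts did not move. A block by genotype and number was fitted for the LPS changes and the interaction only. It left 6 genes called for LPS in each genotype and 0 for the interaction.

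Over all genes, the count of 29 at 0 h was 114 with no filter, 9 without a variance trend, 72 with the replicate block, 0 with only the groups compared, 2 without WT 0 h replicate 1, 128 and 6 without cKO 0 h replicate 1 and 2, and 7 without either cKO LPS sample. The count of 458 after LPS was 208, 301 and 804 in the first 3 of these, 235 under quantile normalization, 14 without WT LPS replicate 1 and 0 without either cKO LPS sample. That of 4275 for LPS in cKO fell to 2845 and 2684 without cKO LPS replicate 1 and 2, and that of 0 for the interaction was 10 with no filter. Depth is unknown, so low genes such as Cxcl5 and Cxcl14 cannot be given a detection limit.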
